A study of Mus musculus with 13 samples.

Results

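The 550 mouse genomic regions described here each held a peak of 3 transcription factors of the ventral neural tube, Nkx2.2, Nkx6.1 and Olig2. They were chosen from the authors' peak lists. Peaks of the 3 lists that shared at least 1 bp were joined, directly or through a further peak, and a region was kept when it held a peak of each list. The joining gave 17913 ventral regions in all, so the 550 made up 3.07% of them. A further 2070 regions held peaks of 2 factors and 15293 held peaks of 1 factor. The choice rests on the lists themselves, so the number of regions, the closeness of the peaks and the coverage of the same 3 immunoprecipitations are given as a description and support nothing.

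Binding was read out by ChIP-seq (immunoprecipitated chromatin, sequenced) in 13 libraries from mouse embryonic stem (ES) cells turned into neural progenitors, 7 of them ChIP and 6 input, which is chromatin sequenced without precipitation. All cultures spent 2 days in suspension and then 3 days with 500 nM retinoic acid. The ventral cultures also received 160 to 800 nM SAG, a Smoothened agonist that turns on Sonic hedgehog signalling, and gave 2 ChIP libraries for each of Nkx2.2, Nkx6.1 and Olig2. Replicate 1 of Nkx6.1 and of Olig2 came from the line YFP3.1. Nkx2.2 replicate 1 and the second replicates of all 3 factors came from Rosa26-Gli1FLAG, a derivative of YFP3.1 that carries FLAG-tagged Gli1. Both lines are of mixed Swiss Webster, C57BL6/J and 129 Sv background, and that of the Gli3 line is C57BL/6 X 129/sv. Gli3 was precipitated once, through a 3xFLAG-Avi tag at its start codon in a line derived from V6.5, from cultures without SAG that the labels call dorsal. For Gli3 the factor, the culture and the line therefore cannot be told apart. Nkx2.2 and Nkx6.1 were precipitated with antibody cocktails and Olig2 with a single antibody. The factors were precipitated separately from mixed cultures, so a shared region does not show that the proteins were bound in the same cell.

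In the developing spinal cord, Sonic hedgehog from the floor plate sets up bands of progenitors, each marked by a combination of transcription factors. Nkx2.2 is a homeodomain protein of the most ventral neuronal progenitors, Olig2 is a basic helix-loop-helix protein of the adjoining band that makes motor neurons, and the homeodomain protein Nkx6.1 spans both bands. The 3 are known chiefly as repressors, and Nkx2.2 and Olig2 restrict each other's range. Gli3 is a zinc finger protein of the hedgehog pathway that is processed to a repressor when the signal is absent.

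The 550 regions took unequal shares of the 3 lists. They held 589 of the 5551 Nkx2.2 peaks (10.6%), 574 of the 4094 Nkx6.1 peaks (14.0%) and 571 of the 11747 Olig2 peaks (4.86%). One peak of each list was found in 477 regions (86.7%). A second Nkx2.2 peak was the commonest addition, in 32 regions, against 16 with a second Nkx6.1 peak and 16 with a second Olig2 peak. The remaining 9 regions were larger mixtures, up to 1 region with 1 Nkx2.2, 3 Nkx6.1 and 3 Olig2 peaks. Every deposited peak is 300 bp wide, and the joined regions ran from 303 to 995 bp with a median of 410 bp.

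The peaks within a region lay nearly on top of each other. In the 477 regions with 1 peak of each list, the outermost 2 of the 3 peak centres were a median of 94 bp apart (range 3 to 422 bp). All 3 centres fell within 50 bp in 111 of these regions (23.3%), within 100 bp in 256 (53.7%) and within 200 bp in 412 (86.4%). Each of the 3 pairs of factors overlapped directly in 524 of the 550 regions (95.3%), and in the other 26 a peak of the third factor bridged 2 that did not touch. The middle of the 3 centres was most often that of Nkx6.1, in 198 of the 477 regions (41.5%, 95% Wilson interval 37.2 to 46.0%). Nkx2.2 was in the middle in 145 (30.4%, 26.4 to 34.7%) and Olig2 in 134 (28.1%, 24.2 to 32.3%). The interval for Nkx6.1 did not overlap the other 2, but the 3 shares are parts of 1 whole and not independent of each other. These and all later intervals cover counting error only, and neighbouring regions are not independent of each other.

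The distance between factors can be set against the distance between blocks of coverage given for the same factor. The deposited coverage tables, 1 for each list, give coverage around every peak in 3 blocks of columns. The columns carry no library name. Each table's own name holds 3 codes, the final one common to the Nkx6.1 and Olig2 tables, but the labels do not say which sample a code stands for or that the codes follow the order of the blocks. Block 3 of the Nkx6.1 table and block 3 of the Olig2 table were identical at 75 of the 75 pairs of peaks that could be laid over each other bin by bin, so these 2 blocks hold 1 library. The only library that the labels place under both tables is an input. Blocks 1 and 2 were never identical between tables. The labels do not say that blocks 1 and 2 hold the ChIP libraries of the table's factor. Distances within a factor, as given below, are those between these 2 blocks of 1 table. In the 477 regions, the place of highest coverage in block 1 lay a median of 25 bp from that in block 2 for Olig2, 25 bp for Nkx6.1 and 37.5 bp for Nkx2.2, on a grid of 25 bp. Between different factors in the same block, the medians were 48 bp (block 1) and 34 bp (block 2) for Nkx2.2 and Nkx6.1. They were 64 and 50 bp for Nkx2.2 and Olig2, and 48 and 48 bp for Nkx6.1 and Olig2. Across blocks, which is how the distances within a factor were taken, the medians from Nkx2.2 to Nkx6.1 were 53.5 bp (block 1 to block 2) and 45 bp (block 2 to block 1). Those from Nkx2.2 to Olig2 were 58 and 59 bp, and those from Nkx6.1 to Olig2 44 and 49 bp. Each of these 6 medians was above the 25 to 37.5 bp found within a factor. By the place of highest coverage in place of the peak centre, Nkx6.1 was in the middle in 39.0% (block 1) and 38.2% (block 2) of regions. The shares of the other 2 factors by this measure are not given, so whether the separation holds cannot be read from these values.

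**Figure D1:**
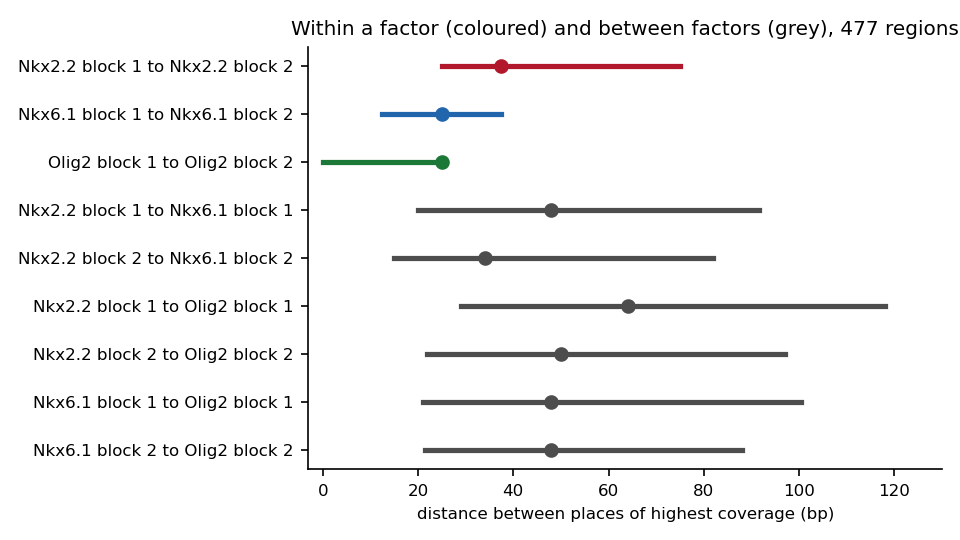
Distance in bp (x axis) between the places of highest coverage in the 477 regions with 1 peak of each list, for the pairs of factor and block named on the y axis; points are medians and bars run from the lower to the upper quartile over regions. Blocks of the same table (coloured) lie 25 to 37.5 bp apart at the median, and different factors in the same block (grey) 34 to 64 bp.

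Of the 550 regions, 533 (96.9%) showed all 3 factors above 2 times their own flank in both blocks 1 and 2, the flank being the mean coverage 1500 to 1800 bp from the peak centre. The peaks were called from the same immunoprecipitations, so this describes the regions and is no separate check of their label. Most peaks of the whole lists passed this mark too. For Nkx2.2, Nkx6.1 and Olig2 the whole-list shares were 99.0, 99.3 and 98.5% in block 1, against 99.3, 99.5 and 98.9% in 3-factor regions. In block 2 they were 93.3, 95.5 and 97.0%, against 98.9, 98.9 and 99.3%. Block 3 passed the same mark in 231 regions (42.0%) in the Nkx2.2 table, 224 (40.7%) in the Nkx6.1 table and 220 (40.0%) in the Olig2 table. Over all peaks of the lists the block 3 shares were 52.6, 32.4 and 34.9% in turn. The members were thus below their list in the Nkx2.2 table and above it in the other 2. The scaling of the coverage is not given and sequencing depth is unknown, so levels are compared only within 1 block of 1 table. For the Nkx2.2, Nkx6.1 and Olig2 tables in turn, the median over the 550 regions of mean coverage within 250 bp of the centre was 27.3, 15.8 and 20.9 in block 1. It was 9.43, 10.2 and 21.6 in block 2, and 1.00, 0.850 and 0.859 in block 3.

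Peaks in the 3-factor regions had higher coverage than the other peaks of their own lists. Each peak was ranked within its list by its mean percentile over blocks 1 and 2, where 100 is the highest, and a region with several peaks of a list was given its highest. The median percentile in 3-factor regions was 80.8 for Olig2, 77.0 for Nkx2.2 and 76.1 for Nkx6.1. In the same order it was 67.8, 61.7 and 57.5 in 2-factor regions, and 43.4, 40.6 and 37.0 in regions of the factor alone. Median coverage of Nkx2.2 peaks was 27.3 in 3-factor regions and 16.7 in Nkx2.2-only regions in block 1, and 9.43 against 3.83 in block 2. On the log2(coverage + 1) scale these differences were 0.68 and 1.11. The corresponding differences were 0.75 and 1.22 for Nkx6.1, and 0.93 and 1.44 for Olig2. The difference in block 3 was -0.23 in the Nkx2.2 table, 0.23 in the Nkx6.1 table and 0.15 in the Olig2 table, and its part in the ranking was not tested.

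The rise was one of height more than of breadth. The mean profile of 3-factor peaks reached 82.5 for Nkx2.2 in block 1, against 45.7 at peaks of Nkx2.2 alone. It was 208 bp wide at the middle of its height over the flank, against 196 bp. For Nkx6.1 the peak of the mean profile in block 2 was 23.2 against 8.52, with widths of 284 and 267 bp. Olig2 in block 1 reached 79.2 against 32.3, with widths of 242 and 232 bp.

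**Figure D2:**
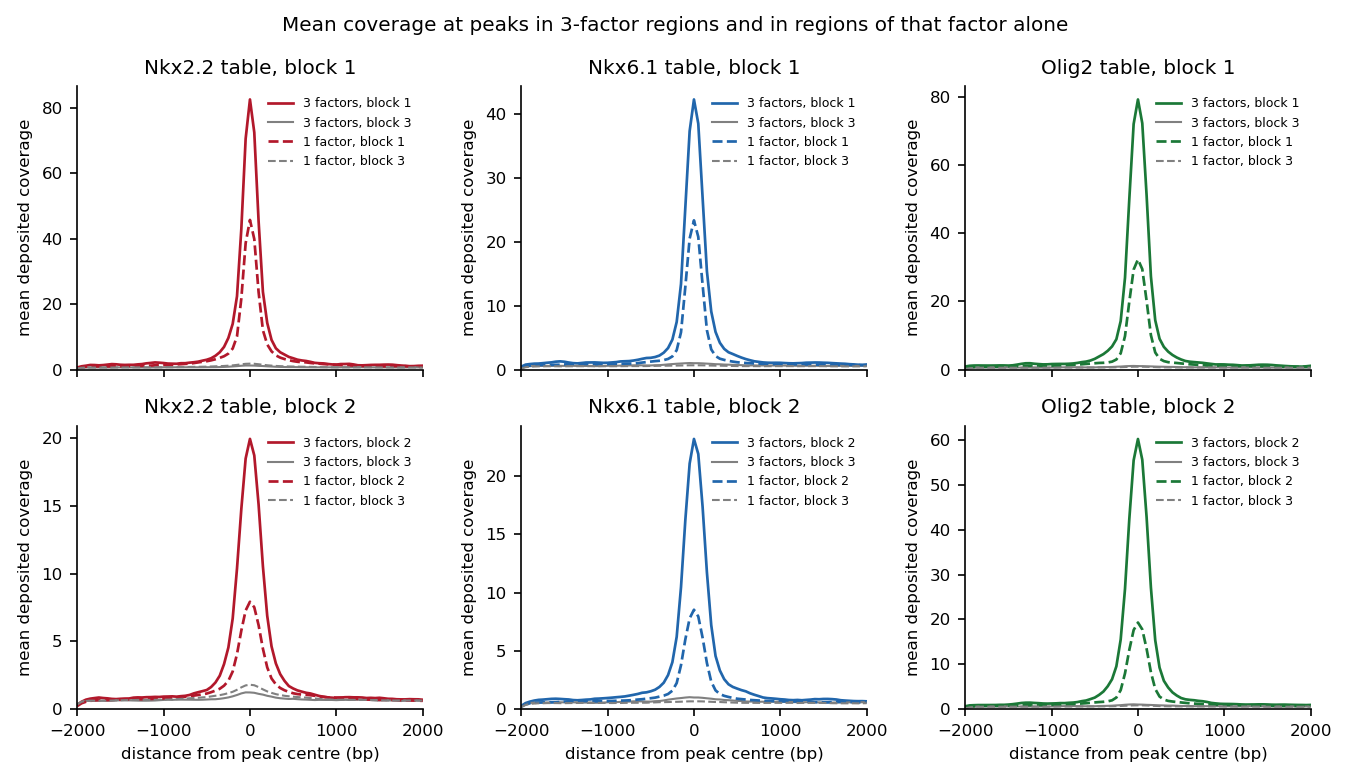
Mean deposited coverage (y axis, scaling not given) by distance from the peak centre in bp (x axis) for the 550 peaks of each factor in 3-factor regions (solid) and for peaks of that factor alone (dashed; 3781 Nkx2.2, 2170 Nkx6.1 and 9342 Olig2 regions). Block 1 is in the upper row, block 2 in the lower row and block 3 in grey in both; within blocks 1 and 2, the profile is higher at 3-factor peaks than at peaks of the factor alone. The blocks are not on a known common scale.

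Peaks of high coverage were the ones most often found in 3-factor regions. Of the Nkx6.1 peaks among the 10% of highest coverage in their list, 176 of 410 (42.9%, 38.2 to 47.8%) lay in a 3-factor region, against 2 of 409 (0.489%) among the lowest 10%. For Nkx2.2 the shares were 35.3% (31.4 to 39.3%) and 1.08%, and for Olig2 16.7% (14.7 to 18.9%) and 0.426%. The authors' own order of lines gave a flatter gradient, with 33.4% in the first 10% of lines and 6.85% in the last for Nkx6.1. That order follows block 1 coverage over the whole list, with rank correlations of 0.928 for Olig2, 0.891 for Nkx6.1 and 0.827 for Nkx2.2. In the same order of factors they were lower with block 2, at 0.634, 0.525 and 0.527. With block 3 they were 0.0508, 0.139 and -0.279.

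**Figure D3:**
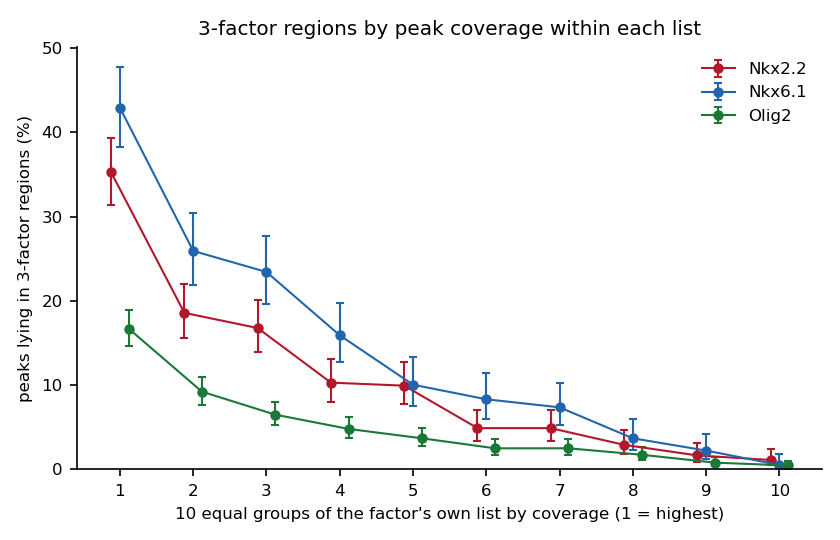
Share of each factor's peaks that lie in 3-factor regions, in percent (y axis), in 10 equal groups of the factor's own list ranked by coverage (x axis, 1 is the highest); bars are 95% Wilson intervals. Olig2 goes from 16.7% to 0.426%, Nkx2.2 from 35.3% to 1.08% and Nkx6.1 from 42.9% to 0.489%.

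A region strong in 1 factor was often only moderate in another. The lowest of the 3 percentiles in a region had a median of 58.5 (range 6.09 to 97.9), and the highest and lowest were a median of 29.9 points apart. All 3 factors had a mean percentile of 50 or above in 349 regions (63.5%), of 75 or above in 122 (22.2%) and of 90 or above in 31 (5.64%). Only 11 regions (2.00%) had all 3 below 50. In 63 regions (11.5%) 1 factor was at 90 or above while another was below 50. These marks were set on the mean percentile and are not exact fractions of a list. The mark of 90 was reached by 8.61% of the whole Olig2 list, 7.69% of the Nkx2.2 list and 7.57% of the Nkx6.1 list. No factor was regularly the leader: Nkx2.2 had the highest percentile in 177 regions (32.2%), Nkx6.1 in 164 (29.8%) and Olig2 in 209 (38.0%).

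Across the 550 regions, coverage of 1 factor went only weakly with that of another. The rank correlation (Spearman) of mean percentiles was 0.318 for Nkx2.2 and Nkx6.1, 0.255 for Nkx6.1 and Olig2, and 0.187 for Nkx2.2 and Olig2. Blocks 1 and 2 of the same table correlated at 0.875 for Olig2, 0.709 for Nkx6.1 and 0.693 for Nkx2.2. The value between factors depended on the block. With block 1 of both factors it was 0.159, 0.165 and 0.112 for the same 3 pairs, and with block 2 of both it was 0.522, 0.393 and 0.294. Mixed blocks lay lower than block 2 with block 2, as in the 0.218 between Nkx2.2 block 1 and Nkx6.1 block 2. The same gap was present in 2-factor regions, where Nkx2.2 and Nkx6.1 gave 0.219 in block 1 and 0.582 in block 2. Block 3 correlated with blocks 1 and 2 of its own table at -0.00355 to 0.188. These correlations describe 1 set of regions whose points share libraries, and no p is attached.

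Gli3, which took no part in choosing the regions, was found at 69 of the 550 (12.5%, 10.0 to 15.6%). Over all ventral regions the share was 685 of 17913 (3.82%). Regions of 2 factors held Gli3 in 6.33% (5.36 to 7.46%) and regions of 1 factor in 3.17% (2.91 to 3.46%). The share also differed between regions with the same number of factors. Regions of Nkx2.2 and Olig2 without Nkx6.1 held Gli3 in 76 of 744 (10.2%, 8.24 to 12.6%), an interval that overlaps that of the 3-factor regions. Regions of Nkx6.1 and Olig2 held it in 46 of 1010 (4.55%, 3.43 to 6.02%) and regions of Nkx2.2 and Nkx6.1 in 9 of 316 (2.85%, 1.51 to 5.32%), both below the 3-factor interval. Nkx2.2-only regions stood at 7.17% (6.39 to 8.03%), Olig2-only regions at 2.10% and Nkx6.1-only regions at 0.829%.

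The wider span of the 3-factor regions gives Gli3 more room to overlap, so the share was also taken at single peaks, which are all 300 bp wide. Among the Nkx2.2 peaks, 68 of 550 in 3-factor regions met a Gli3 peak (12.4%, 9.87 to 15.4%), against 7.17% in Nkx2.2-only regions. For Nkx6.1 peaks the shares were 12.0% (9.54 to 15.0%) and 0.829%, and for Olig2 peaks 11.8% (9.38 to 14.8%) and 2.10%. In regions of Nkx2.2 and Olig2 the share was 9.95% (8.0 to 12.3%) at Nkx2.2 peaks and 9.81% (7.88 to 12.2%) at Olig2 peaks, and both intervals overlap those of the 3-factor regions. In regions of Nkx6.1 and Olig2 it was 4.36% (3.26 to 5.80%) at Nkx6.1 peaks and 4.16% (3.09 to 5.57%) at Olig2 peaks, and in regions of Nkx2.2 and Nkx6.1 it was 2.85% (1.51 to 5.32%) at the peaks of either factor. Within the 3-factor regions, the narrowest of 4 equal groups (303 to 359 bp) held Gli3 in 10.2% (6.19 to 16.4%) and the widest (494 to 995 bp) in 14.5% (9.58 to 21.3%).

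Gli3 was most frequent where all 3 ventral factors were strong. The 550 regions were ordered by the lowest of their 3 percentiles and split into 4 equal groups. Gli3 was present in 8 of 137 regions (5.84%, 2.99 to 11.1%) in the lowest group. The next 2 groups held it in 12 of 138 (8.70%) and 16 of 137 (11.7%), and the highest group in 33 of 138 (23.9%, 17.6 to 31.7%). The intervals of the lowest and highest groups did not overlap. By single factors, the clearest gradient was that of Olig2, from 3.65% (1.57 to 8.26%) to 19.6% (13.8 to 27.0%). From the lowest to the highest of 4 groups the share went from 9.49 to 17.4% by Nkx2.2 and from 8.76 to 15.9% by Nkx6.1, with overlapping intervals in both. The median percentiles at regions with and without Gli3 were 88.6 and 79.0 for Olig2, 86.9 and 75.5 for Nkx2.2, and 84.2 and 74.5 for Nkx6.1.

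Block 3 was also higher at the 69 regions with Gli3. Its median was 1.18 against 0.822 in the Nkx6.1 table, 1.12 against 0.822 in the Olig2 table and 1.08 against 0.990 in the Nkx2.2 table. The mean flank of block 3 was higher there as well. In the same order of tables it was 0.653 against 0.555, 0.658 against 0.552 and 0.681 against 0.616. In the 185 regions where block 3 stayed at or below 2 times its flank in all 3 tables, a subset chosen after seeing the data, the Gli3 share was 13.0%. With the 4 groups set anew in that subset, it was 6.52% of 46 regions in the lowest and 25.5% of 47 in the highest. No intervals were computed for these small groups, so whether the 2 shares lie apart cannot be read from them. The part of block 3 in the Gli3 shares was not tested.

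By the Nkx2.2 percentile, the order of the Gli3 shares differed between classes. In 3-factor regions, Gli3 was present in 15.8% (12.1 to 20.4%) of those with an Nkx2.2 percentile of 75 or above and in 8.88% (5.99 to 13.0%) of those below 75. Regions of Nkx2.2 and Olig2 had the same order, with 13.1% (9.25 to 18.1%) and 9.00% (6.84 to 11.8%). The order was the opposite in regions of Nkx2.2 and Nkx6.1, with 1.65% (0.454 to 5.83%) and 3.59% (1.75 to 7.22%), and in Nkx2.2-only regions, with 4.57% (3.07 to 6.77%) and 7.57% (6.71 to 8.52%). In each of these 4 classes the 2 intervals overlap. By the Olig2 percentile, Olig2-only regions showed the order of the 3-factor regions, with 4.68% (3.74 to 5.83%) and 1.57% (1.32 to 1.87%), against 16.9% (13.2 to 21.4%) and 6.49% (3.97 to 10.4%) in 3-factor regions. By the Nkx6.1 percentile the shares were 15.5 and 9.36% in 3-factor regions, and 5.40 and 4.23% in regions of Nkx6.1 and Olig2. They were 1.93 and 0.713% in Nkx6.1-only regions, and in the opposite order, 2.27 and 3.07%, in regions of Nkx2.2 and Nkx6.1. The 2 intervals overlap in each of these 4 classes as well. The differences between classes in these gradients were not tested.

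Where Gli3 was present, its peak centre lay within the cluster of the other centres or close to it. A Gli3 peak was counted only where it shared at least 1 bp with the region. That rule bounds the distances, which are given as a description. The median distance from the Gli3 centre was 52 bp to the nearest Nkx6.1 centre, 73 bp to Nkx2.2 and 91 bp to Olig2 (69 regions). The nearest ventral centre was that of Nkx2.2 in 29 regions, of Nkx6.1 in 23 and of Olig2 in 17. In 30 of the 58 such regions with 1 peak of each list, the Gli3 centre fell between the outermost ventral centres.

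**Figure D4:**
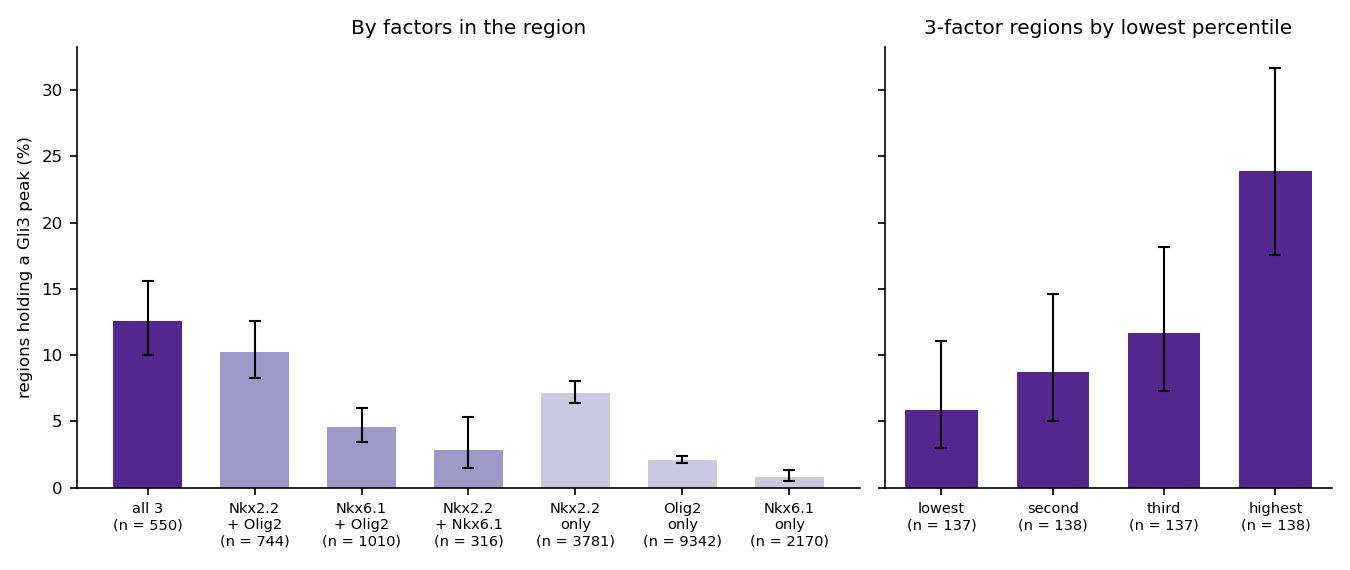
Share of regions holding a Gli3 peak, in percent (y axis), by the ventral factors present (left) and, within the 3-factor regions, in 4 equal groups by the lowest of the 3 percentiles (right); error bars are 95% Wilson intervals and n is the number of regions. The 3-factor regions stand at 12.5%, and the 4 groups go from 5.84% to 23.9%.

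The 3-factor regions lay closer to other ventral regions than 1-factor regions did. Another ventral region was found within 10 kb of 236 of the 550 (42.9%, 38.8 to 47.1%). The share was 37.5% (35.5 to 39.6%) for 2-factor regions and 30.2% (29.5 to 30.9%) for 1-factor regions, so only the latter interval lies apart. The median distance to the nearest other region was 15.6 kb, 19.2 kb and 27.5 kb in the 3 classes. Within 100 kb, 90 of the 550 (16.4%, 13.5 to 19.7%) had another 3-factor region, against 12.3% (11.0 to 13.8%) of 2-factor and 8.55% (8.11 to 9.00%) of 1-factor regions. Here too the interval of the 2-factor regions overlaps that of the 3-factor regions, and regions of Nkx2.2 and Nkx6.1 stood at 13.3% (9.99 to 17.5%).

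By chromosome, the share of ventral regions that were 3-factor regions ran from 0 to 4.60%. None of the 266 regions on chromosome X was a 3-factor region (upper Wilson bound 1.42%), nor was the single region on chromosome Y. On the autosomes the lowest share was on chromosome 7, with 16 of 1052 (1.52%, 0.938 to 2.46%), and the highest on chromosome 14, with 37 of 804 (4.60%, 3.36 to 6.28%).

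Three-factor regions sometimes came in runs. Linking those within 100 kb of the next left 460 on their own and gave 37 pairs, 2 sets of 3, 1 of 4 and 1 of 6. The set of 6 lay at chr5:101861309-102019905 (mm9, the build of all coordinates here), a stretch of 159 kb with 7 Nkx2.2, 10 Nkx6.1, 9 Olig2 and 2 Gli3 peaks. Its members differed in their leading factor. The region at chr5:101948248-101948607 had an Olig2 percentile of 99.5 and an Nkx2.2 percentile of 63.6, while the one at chr5:101966668-101967241 had 47.4 and 97.1. Nkx6.1 was at 82.0 or above in all 6. The set of 4, at chr14:118629614-118835433, held a region with an Nkx2.2 percentile of 99.8 and coverage of 213 and 52.2 in blocks 1 and 2. Olig2 stood at the percentile 50.6 in that region. A set of 3 lay at chr4:123975909-124155659, and the member at its right end, chr4:124155185-124155659, had all 3 factors at 92.5 or above and a Gli3 peak. Each of these 3 sets had 1 member with Gli3. The other set of 3, tied in size with the one on chromosome 4, lay at chr11:96440230-96444248 and had no member with Gli3.

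The 10 regions with the highest lowest percentile had all 3 factors at 96.0 or above, and 5 of them held a Gli3 peak. The first was chr13:39615767-39616102, where the 3 centres spanned 36 bp and Gli3 was present. Its coverage in blocks 1 and 2 was 71.6 and 34.9 for Nkx2.2, 37.7 and 33.3 for Nkx6.1, and 99.9 and 132 for Olig2. Block 3 at that region was 0.885, 1.29 and 1.31 in the 3 tables. The region at chr16:50380338-50380649 was similar, with centres within 12 bp, Gli3 present, and percentiles of 97.9, 97.6 and 99.4 for Nkx2.2, Nkx6.1 and Olig2. At chr19:45533287-45533645 Olig2 coverage reached 570.3 in block 1 and 290.1 in block 2, against medians of 20.9 and 21.6 over the 550 regions, and Gli3 was present there too. The region at chr5:140011563-140011918 had the highest Nkx6.1 percentile of the 10, 99.6, with coverage of 67.8 and 73.9 and a Gli3 peak. The fifth with Gli3 was chr2:105452257-105452764. The 5 without it were chr8:33179226-33179847, chr1:78138271-78138650, chr7:122644969-122645354, chr14:17565993-17566612 and chr6:101832821-101833314. In these 5 the lowest percentile was 96.0 to 97.7.

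At the other end stood regions led by 1 factor. The region at chr9:24665357-24665665 had an Nkx2.2 percentile of 91.3, while Nkx6.1 was at 16.7 and Olig2 at 26.4, although the 3 centres fell within 9 bp. At chr5:76471524-76471920 Nkx6.1 was at 92.8, Nkx2.2 at 49.4 and Olig2 at 26.3. The region at chr18:79245803-79246247 had Olig2 at 94.1, Nkx2.2 at 36.7 and Nkx6.1 at 11.4, and it held a Gli3 peak. Closeness of the centres did not go with even coverage at chr9:40968681-40968983 either. All 3 centres lay within 3 bp there, with Nkx2.2 at 98.2, Nkx6.1 at 97.0 and Olig2 at 16.4. The widest region, chr8:130941647-130942641, spanned 995 bp and held 1 Nkx2.2, 3 Nkx6.1 and 3 Olig2 peaks, with percentiles of 70.1, 80.4 and 92.9.

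**Figure D5:**
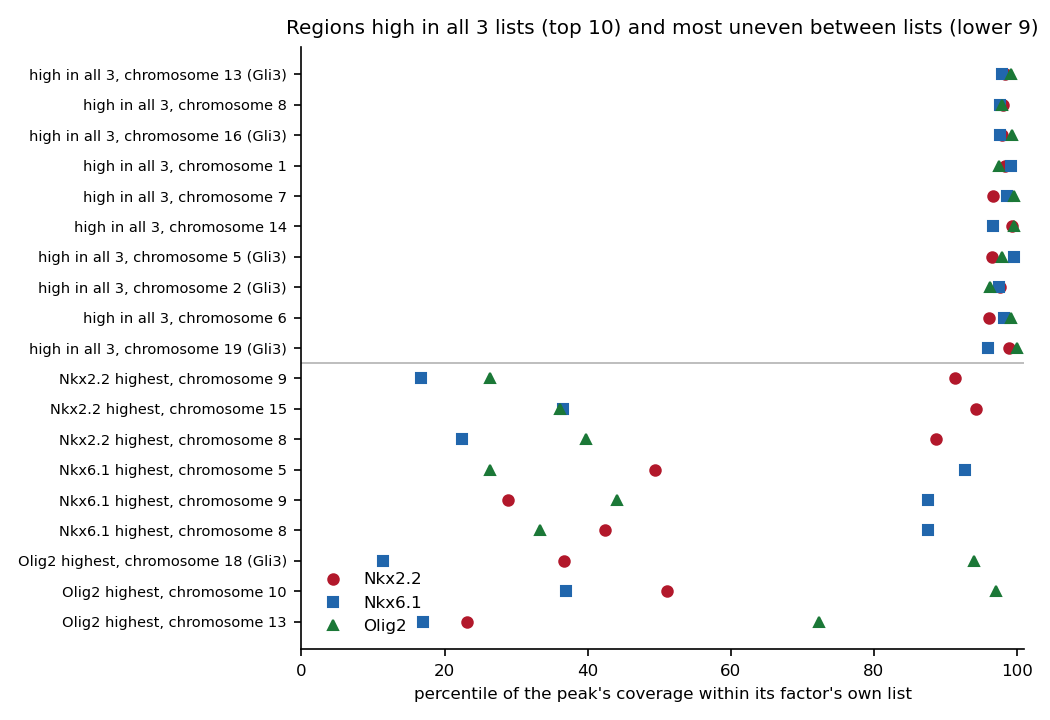
Percentile of coverage within each factor's own list (x axis, 100 is the highest) in the 10 regions with the highest lowest percentile (above the line) and in the 3 regions for each factor where it most exceeds the other 2 (below the line), named by chromosome on the y axis. The upper 10 have all 3 factors at 96.0 or above, and in the lower 9 the leading factor stands apart.

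The limit of 1 bp decided few regions. In the 477 regions with 1 peak of each list, the smallest overlap that held a region together was 4 bp at chr13:15635691-15636390, 4 bp at chr17:63127302-63128023 and 5 bp at chr15:68711668-68712287. It was under 150 bp in 65 of them (13.6%). Just outside were chr16:69980066-69980466, where Nkx2.2 and Nkx6.1 overlapped and an Olig2 peak lay 11 bp away, chr18:55295886-55296258, with an Olig2 peak 16 bp away, and chr13:79075435-79075813, with an Nkx6.1 peak 17 bp away. A peak of the third factor lay within 100 bp of 25 of the 2070 regions of 2 factors and within 1000 bp of 90.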

How the data were processed

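ChIP-seq peak lists and coverage tables were used as deposited. Per the submitters' processing notes, mm9 was the build and Bowtie2 2.2.4 and HOMER were among the tools; their roles, settings and any pooling of replicates were not given in the sources used here. Each peak list was deposited by the authors as chromosome, start and end, all 300 bp wide and without a score, and each coverage table with 161 offsets from -2000 to 2000 bp in steps of 25 bp, in 3 blocks, per the file headers. Row order was taken as list order. Depth and scaling are unknown, so no counting precision can be given for coverage.

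Regions, percentiles and 95% Wilson intervals were computed with Python 3.11.15, pandas 2.3.3, numpy 2.4.6 and scipy 1.17.1, after the scripts were tested on simulated data. Coverage was averaged within 250 bp of the peak centre; places of highest coverage were sought within 500 bp after smoothing over 3 bins. The pseudocount was 1. No test across regions was made, because the regions are not replicates and no library is named for a block.

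The members, lists and rules were chosen with earlier results of these data known. Regions are named by fixed rules: the 10 highest by lowest percentile, those led by 1 factor, the widest and those with the closest centres, those with Gli3, the largest runs, and those nearest the limit; single members of these groups were then picked as examples. Alternatives changed the joining rule, window, block and pseudocount. Gene assignment, distance to start sites and motifs were planned and are not analysed here, since no mm9 genome or annotation was used.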

Additional observations from a re-analysis of the deposited data

How the results depend on the processing

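Of 61 values under alternatives, over 21 results, 50 stayed within the spread given to them, 11 moved and 0 changed sign. Only correlations and log2 differences could change sign, since counts, shares, percentiles and distances cannot be negative. The spread was 1.5 times for the number of regions, the Wilson interval for shares and the binomial interval of the median for distances. For percentiles, correlations and log2 differences it was the standard deviation of the values from block 1 and block 2. Those block values of the percentiles and correlations were themselves among the 61, so the 50 say little about how steady these are. The rank correlation of Nkx2.2 and Nkx6.1 was counted as staying at 0.159 (block 1) and 0.522 (block 2), against 0.318. The number of regions was 468 with at least 150 bp of overlap, 369 with centres within 100 bp, 600 with centres within 1000 bp and 524 with all pairs overlapping directly, and the Gli3 share ran from 11.9 to 14.5% over its alternatives.

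The median percentile of 3-factor peaks moved with the block. From block 2 alone it was 82.5 for Nkx2.2 and 80.9 for Nkx6.1, and from block 3 alone 63.0 for Olig2, 66.5 for Nkx6.1 and 40.1 for Nkx2.2. Relative to the flank it was 70.1 for Nkx2.2. By place in the deposited list, an alternative chosen after seeing the data, it was 70.5 for Nkx6.1 and 73.9 for Olig2. The Gli3 share in the lowest of the 4 groups was 2.92% when ranked by block 2 alone, also chosen after seeing the data, against 26.8% in the highest under the same ranking. Another 3-factor region lay within 10 kb of 3.45% of members and within 1000 kb of 51.8%, since a wider distance takes in more neighbours. For the other moved values the cause was not tested. The alternatives on motifs and start sites were not run, and no replicate could be left out because each factor has 1 list and the blocks name no library. No paired analysis was possible because the results come from no test and the columns carry no replicate numbers. Depth limits are unknown.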
